A study of Mus musculus with 5 samples.

Results

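In mouse CD8+ T cells, 894 restriction fragments were at least 30 percentage points more methylated in each of 2 single-cell clones than in the non-clonal population they were compared with. They were chosen from the 161264 fragments that had 10 or more molecules with a methylation call in each of the 3 libraries, called eligible here, out of 1373627 fragments with any molecule. A fragment's level is the share of methylated calls among all its CpG calls in a library. The rule used the level of every library, so clone minus population is a description of these fragments, the members, and carries no test. The founder cells were not measured, so a rise or fall here is a difference from the population, not a change followed in time. A fragment said to start at a level had that level in the population.

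All cells were primary CD8+ T cells of C57BL/6 mice, grown from naive splenic T cells cultured with IL2, and single CD8+ cells were sorted using anti-CD3 and anti-CD28, per the labels. The population is 1 sample of non-clonal cells, and each clone is 1 founder cell expanded over 15 labelled divisions, so 1 clone stands for 1 founder. Each clone has 2 labelled replicates, which share 1 deposited file and were read as 1 pooled library. No value therefore has a spread between replicates, and intervals cover counting error between molecules of 1 library. Molecules with a call numbered 5588357 for the population, 7013054 for clone 1 and 5567534 for clone 2. With fragments known by number alone, the cell type label was not checked against marker genes, and positions in mm9 and nearby genes were not analysed here.

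CpG methylation is copied at cell division by the maintenance methyltransferase Dnmt1, which acts on the new strand opposite a methylated CpG, while Dnmt3a and Dnmt3b can methylate CpGs without such a template. A clone inherits the states of its founder, apart from gains and losses along the divisions. CpG-dense regions are mostly unmethylated in mammalian cells and the rest of the genome is mostly methylated, with intermediate levels at many regulatory elements and at the margins of unmethylated regions. The enzyme MspI cuts CCGG sites in either methylation state, so every fragment has a CpG at each end and at least 2 in all.

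The median level of the members was nearly the same in both clones, and population levels were intermediate or low. The median level of the members was 32.7% in the population, against 76.9% and 76.5% in clones 1 and 2. Population levels ran from 0 to 70%, clone 1 levels from 30 to 100% and clone 2 levels from 30.8 to 100%. The median difference from the population was 40.1 percentage points in clone 1 and 39.8 in clone 2. Members made up 0.554% of eligible fragments, and the mirror set, at least 30 points below the population in both clones, 0.104% (167 fragments). Over all eligible fragments the median difference was 0.35 points in clone 1 and 0.723 in clone 2.

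**Figure D1:**
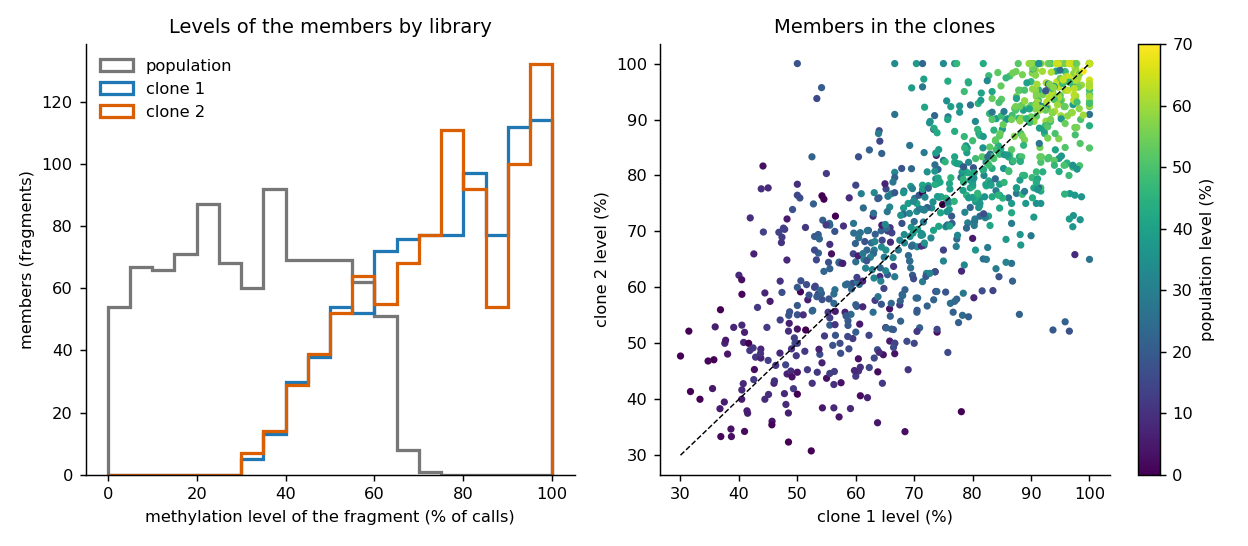
Left, histogram of the methylation level (% of calls, bins of 5 points) of the 894 members in the population, clone 1 and clone 2. Right, each member's level in clone 1 against clone 2, coloured by its population level, with the line of equal levels; members low in the population lie at the lower left and those near 50% in the population at the upper right.

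Most members were short of complete methylation in the clones. In 308 members (34.5%) both clones stood at 80% or more, from a median of 52.2% in the population. A further 162 had 1 clone at 80% or more, and in 424 (47.4%) both clones stayed under 80%, from a population median of 17.9% to 61.9% in clone 1 and 61.3% in clone 2. Both clones lay at 40 to 60% in 102 members, which had a population median of 11.5%. Levels of 95% or more in both clones were reached by 58 members. The 17 members with no methylated call in the population had a median of 50% in each clone.

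Members differed from other eligible fragments in their population level. Of all eligible fragments, 14.7% lay at 20 to 80% in the population, against 71.1% of members. Members were 5.99% of the 5128 eligible fragments at 20 to 40% in the population, 3.30% of the 4147 at 10 to 20%, 3.25% of the 10136 at 40 to 70%, and 0.370% of the 32723 under 10%. Levels above 70% leave no room for a rise of 30 points, so these shares are partly set by the rule.

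CpG-poor fragments held most members, and the CpG-rich members had lower population levels. Fragments with 2 to 4 CpGs gave 468 members (0.653% of those eligible), 5 to 9 CpGs gave 330 (0.542%), 10 to 19 CpGs gave 88 (0.363%) and 20 or more gave 8 (0.182%). The population median of the members fell along this order from 38.3% to 29.7%, 21.7% and 15.6%. Whether this order is particular to members was not tested against all eligible fragments of each class. The mirror set was concentrated further on few CpGs, with 140 of its 167 fragments at 2 to 4 CpGs, 22 at 5 to 9 and 5 above that.

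Members were more frequent among thinly covered fragments. In the least covered library, 361 members had 10 to 14 molecules and 54 had 30 or more. Members were 0.762% of eligible fragments in the first class and 0.276% in the second, with mirror shares of 0.139% and 0.0409%. Fewer molecules give wider counting error, and the population error enters both differences. Its part in the count was not tested. Molecules per fragment in clone 1 relative to the population had a median log2 ratio of 0.42 at members and 0.33 at all eligible fragments, and in clone 2 of 0.09 and 0.06.

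The member with the widest smaller difference was fragment 984173, with 5 CpGs, at 14.8% in the population, against 93.0% in clone 1 and 96.2% in clone 2. Counting a molecule as methylated when more than 50% of its calls are, the population had 1 methylated molecule of 17 (Wilson 95% interval 1.05 to 27.0%). Clone 1 had 35 of 35 (90.1 to 100%), and for clone 2 it was 16 of 17 (73.0 to 99%). Reads start at the fragment end of their strand, and a molecule often shows only part of the CpGs. With filled circles for methylated, open ones for unmethylated and dots for unobserved CpGs, the commonest plus-strand pattern was ○○○○· in the population (4 of 8 molecules) and ●●●●· in clone 1 (11 of 25) and clone 2 (9 of 14). Nearly the whole set of clone molecules was thus methylated where population molecules were mostly bare.

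Fragment 335621, with 8 CpGs, had no methylated call in the population (0 of 11 molecules, 0 to 25.9%) and stood at 74.9% in clone 1 and 74.8% in clone 2. Clone 1 had 19 methylated molecules of 25 (56.6 to 88.5%) and clone 2 had 17 of 22 (56.6 to 89.9%). Its molecules came in nearly complete states. On the plus strand, population molecules carried ○○○○○○○· (5 of 6), while clone 1 held ●●●●●●●· on 6 of 12 and ○○○○○○○· on 3 of 12, and clone 2 held ●●●●●●●● on 4 of 16, ●●●●●●●· on 2 and ○○○○○○○· on 3. Unmethylated molecules like those of the population were present in both clones.

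A methylated minority was visible in the population at fragment 1438117, with 9 CpGs. There ○○○○○○○○· was carried by 5 of 8 plus-strand population molecules and ●●●●●●●●· by 2, and the latter by 5 of 12 in clone 1 and 5 of 10 in clone 2. Levels were 26.4%, 95.0% and 98.8%, with 3 of 11, 16 of 16 and 12 of 13 methylated molecules. Fragment 462183, with 7 CpGs, went from 7.14% to 73.8% and 83.6% (0 of 28, 23 of 29 and 18 of 20 molecules). In clone 1 the second and the third CpG were methylated on 100% of calls, but the fourth on 20%, against 69.2% in clone 2.

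The other members with the widest differences held only their 2 end CpGs, which nearly all molecules read singly, each from its own strand. Fragment 1477475 was best covered, with 4 of 21 molecules methylated in the population (7.67 to 40%). Clone 1 had 37 of 40 (80.1 to 97.4%) and clone 2 had 39 of 41 (83.9 to 98.7%). Fragment 923736 had 2 of 10, 17 of 18 and 14 of 14, fragment 691594 had 0 of 11, 15 of 21 and 10 of 13, and fragment 642863 had 5 of 19, 12 of 12 and 10 of 11. In fragment 642863 all 5 methylated population molecules lay on the plus strand (5 of 10), with 0 of 9 on the minus strand. Its 2 ends thus had different levels in the population.

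**Figure D2:**
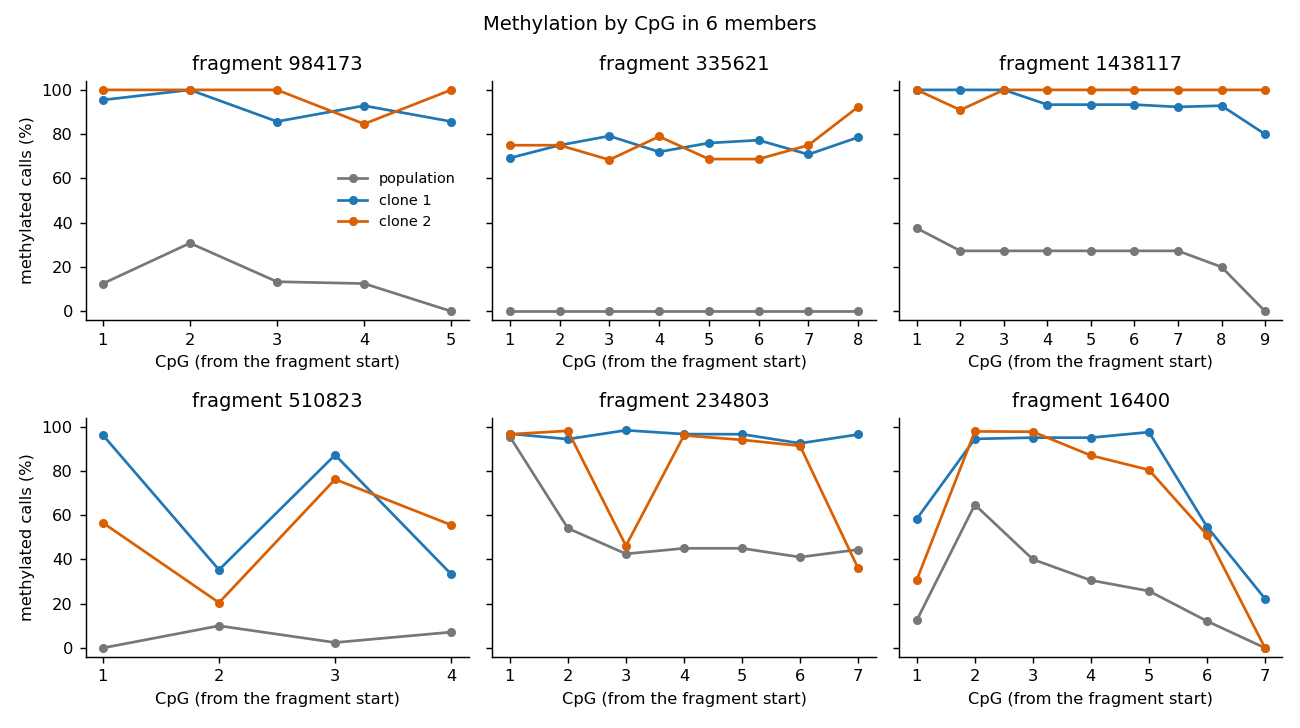
Methylated calls (%) at each CpG, in order from the fragment start, in the population, clone 1 and clone 2. The top panels are the 3 members of at least 4 CpGs with the widest smaller difference, and the bottom panels the 3 with most molecules in their shallowest library; the clones lie well above the population at every CpG of the top panels, while in the bottom ones some CpGs changed little.

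The best covered members rose unevenly along their CpGs. Fragment 510823, with 4 CpGs, was at 4.96% in the population, against 65.8% in clone 1 and 50.4% in clone 2, with 1 of 42, 32 of 46 and 20 of 45 methylated molecules. The third CpG stood at 2.44%, 87.2% and 76.2% in the same order, the second at 10%, 35.3% and 20.5%, and the fourth at 7.14%, 33.3% and 55.6%. The plus strand showed ○○○· on 22 of 27 population molecules and ●○●· on 8 of 29 in clone 1 and 5 of 27 in clone 2. The second CpG thus stayed far below the third in both clones.

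Fragment 234803, with 7 CpGs, was at 50%, 95.9% and 81.9% (16 of 41, 61 of 63 and 53 of 58 molecules). The third CpG stood at 42.5% in the population, against 98.3% in clone 1 and 46.2% in clone 2, and the seventh at 44.4%, 96.4% and 36%. In clone 2 the pattern ●●○●●●· was carried by 10 of 31 plus-strand molecules and ●●●●●●· by 9, while clone 1 had the latter on 23 of 34. In clone 2 these 2 CpGs thus lay within 10 points of the population, as did the first CpG, which was at 95.5% in the population and 96.6% in clone 2.

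Fragment 16400, also with 7 CpGs, rose from 29.6% to 79.2% in clone 1 and 71.5% in clone 2. The second to the fifth CpG stood at 94.4 to 97.5% in clone 1 and 80.4 to 97.8% in clone 2, and the seventh at 0% in the population and clone 2 and 22.2% in clone 1. Fragments 1481165 and 36756, with 5 CpGs each, ended at partial levels, from 4.86% to 37.7% and 50.5%, and from 7.86% to 47.8% and 41.0%. Fragment 622154, with 4 CpGs, started at 60.6% and reached 91.3% and 93.5%.

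The members with most CpGs differed in the levels of the clones. Fragment 608055, with 35 CpGs, was at 30.3% in the population, against 69.7% in clone 1 and 77.6% in clone 2, and fragment 383262, with 31, was at 9.14%, 60.8% and 45.7%. Fragment 267165, with 29, was at 15.7%, 68.8% and 50.4%. Fragment 383265, with 24 CpGs and 3 numbers from 383262, was at 0.673%, 50.5% and 59.2%, with 0 of 20, 10 of 20 and 11 of 17 methylated molecules. Fully methylated molecules were seen over nearly the whole fragment: ●●●●●●●●●●●●···●●●●●●●●· was carried by 2 of 14 plus-strand molecules in clone 1 and 2 of 7 in clone 2.

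Fragment 744312, which also has 24 CpGs and was added after its values were seen, was at 40%, 92.2% and 88.0%, with 6 of 13, 21 of 21 and 11 of 11 methylated molecules.

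At the threshold, fragments 66057, 103156 and 438795 were members with a smaller difference of exactly 30 points. The fragments just outside it were 193137, at 22.2%, 52.2% and 57.5%, fragment 577978, at 53.8%, 83.7% and 97.8%, and fragment 1484218, at 61.4%, 95.0% and 91.4%. Their smaller differences were 29.952, 29.946 and 29.934 points. Counting error is far wider than this gap: in the population, 14 of 20 molecules of fragment 103156 were methylated (48.1 to 85.5%), against 31 of 31 and 19 of 19 in the clones. Both differences reached 40 points in 275 members, 50 points in 72 and 60 points in 13.

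Across the members, most CpGs shared the rise, but few fragments rose evenly. Of 4027 member CpGs with 5 or more calls in each library, 3683 (91.5%) were higher in both clones, 2411 (59.9%) by 30 points or more, and 29 (0.720%) were lower in both. The rule fixed this excess, and the corresponding shares over all eligible fragments were 22.6%, 1.42% and 15.1%. In 271 of 451 members with 4 or more such CpGs, every measured CpG was higher in both clones, and in 26 every one was higher by 30 points. The spread between the highest and lowest CpG of a fragment had a median of 36.6 points in the population, with 52.4 and 55.6 in clones 1 and 2. Other eligible fragments had 13.3 in the population. These spreads include counting error.

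CpGs that were high within a member tended to be the same ones in each library. Centred on the fragment, CpG levels of clone 1 and clone 2 had a Pearson correlation of 0.552 over 3067 CpGs of 451 members, and each clone correlated with the population at 0.427 (clone 1) and 0.424 (clone 2). These CpGs share fragments, molecules and sequence context, so this describes the members only. In members with 4 or more CpGs, inner CpGs had median rises of 45.4 points in clone 1 and 43.6 in clone 2, and end CpGs, inside the MspI sites, of 37.5 in each.

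Most member molecules with calls at 3 or more CpGs carried both methylated and unmethylated CpGs. Such calls were available for 10089 of 18719 member molecules in the population, 12938 of 24591 in clone 1 and 10999 of 20662 in clone 2. These molecules came from 582, 589 and 590 of the 894 members, and members with 2 CpGs could not enter. Among molecules with calls at 3 or more CpGs, 52.4% were mixed in the population (Wilson 95% interval 51.4 to 53.4%), against 57.5% (56.7 to 58.4%) for clone 1 and 60% (59.1 to 60.9%) for clone 2. Fully unmethylated molecules made up 40.4% in the population, against 4.70% in clone 1 and 4.93% in clone 2, and fully methylated ones 7.17%, 37.8% and 35.1%. Over all eligible fragments, mixed molecules were 27.2%, 28.4% and 27.7%. Bare molecules, common in the population, were thus few in the clones, as the rise in level requires, and mixed ones were somewhat more frequent.

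Members at intermediate clone levels consisted mainly of mixed molecules. A molecule with 1 differing call is mixed too, so this share does not tell evenly mixed molecules from nearly complete ones. Where both clones lay at 40 to 60%, 81.1% of clone 1 molecules (79.0 to 82.9%) and 79.1% of clone 2 molecules (76.9 to 81.1%) were mixed, against 38.1% in the population. Fully methylated molecules were 8.78% and 8.73% there, and fully unmethylated ones 10.2% and 12.2%. Fragment 383265, in this group, held both opposite kinds in clone 1. On its plus strand ●●●●●●●●●●●●···●●●●●●●●· was carried by 2 of 14 molecules and ·············○○○○○○○○○○· by 1. Where both clones reached 80%, mixed molecules fell from 62.7% in the population to 30.5% and 33.3%.

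Compared at the same population level, members and other fragments differed by less than 10 points in the share of mixed molecules in the population. At 20 to 40% in the population these were 59.8% in members and 63.2% in other eligible fragments, and at 10 to 20% they were 46.4% and 50.4%. Under 10% members had 22.1% and others 14%, and at 40 to 70% members had 64.2% and others 71%. Fragments of different CpG number are mixed in these classes, and the intervals cover molecules, not fragments.

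**Figure D3:**
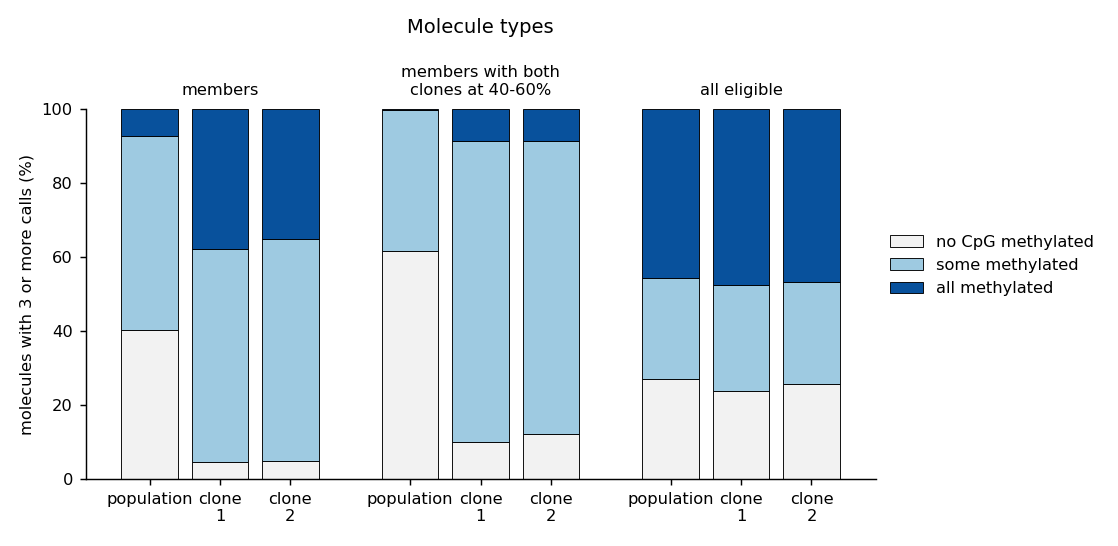
Share of molecules (% of those with 3 or more calls) with no, some or all of their observed CpGs methylated, by library, in all members, in the 102 members with both clones at 40 to 60%, and in all eligible fragments. Fragments without such molecules do not contribute. Members had 40.4% fully unmethylated molecules in the population and under 5% in the clones, and molecules of the middle group were mostly mixed in both clones.

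Strand levels are parts of the calls that chose the members, so a difference on both strands is largely set by the rule. With 5 or more molecules on each strand in every library, 550 members could be read by strand. Both clones were above the population on both strands in 530 of them (96.4%). They were above by 30 points on both strands in 226 (41.1%), and by 30 points on 1 strand alone in 300 (54.5%). Of the 73 with 2 CpGs, 16 (21.9%) reached 30 points on both strands. The median rise over the 550 was 41.0 points in clone 1 and 41.4 in clone 2 on the plus strand, and 41.0 and 41.4 on the minus strand. Plus-strand molecules made up 49.7% of member molecules in the population, against 49.6% in clone 1 and 50.2% in clone 2. Reads per molecule averaged 1.84, 1.37 and 1.76 at members and 2.45, 1.49 and 1.89 at all eligible fragments.

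The clones differed from each other at few members. Fisher's exact test on methylated and other molecules, two-sided, was run on all 184187 fragments with 10 or more molecules in both clones, with Benjamini-Hochberg adjustment. Calls combined an adjusted p under 0.05 with a gap of 20 points or more. Of the 894 members, 18 were called (2.01%), 8 higher in clone 1 and 10 higher in clone 2, against a background of 3.78% of all fragments tested, 1.71% higher in clone 1 and 2.06% higher in clone 2. The test compares 2 libraries, not conditions, and the rule limits how far apart members can lie. With molecules at exactly 50% also counted as methylated, 7 members were called (0.783%, against 2.27% of all). With molecules of 2 or more reads, 190 members could be tested and 0 were called by Fisher's exact test, with 8 at an unadjusted p under 0.05, against 1.13% called of all 47011 fragments tested.

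The gap between the clones was mostly smaller than the difference that chose the members. It was 5 points of level or less in 378 members, 10 or less in 607 (67.9%) and over 20 in 83, with a median of 6.25. Over all eligible fragments, most of which lie under 20% or at 80% or more in the population, 78.4% were within 10 points and the median gap was 3.30, so the clones lay further apart at members than at fragments in general. Clone 1 was the higher in 424 members and clone 2 in 453. Among fragments with 20 to 80% methylated molecules over both clones together, 12 of 492 members (2.44%) and 5727 of 26948 fragments (21.3%) were called. Both clones of a member must lie above 1 shared population level by 30 points, a limit that the larger set did not have. Its part in the lower share was not tested.

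Among called members, the share of methylated molecules in clone 1 was furthest above that in clone 2 at fragment 1003310, with 8 CpGs: methylated molecules numbered 0 of 10 in the population, against 20 of 26 in clone 1 and 1 of 10 in clone 2. The adjusted p was 0.0158 (Fisher's exact test, Benjamini-Hochberg). Its levels were 0%, 78.1% and 37.8%, so in clone 2 most molecules carried methylated calls at no more than 50% of their CpGs. Fragment 111642, with 3 CpGs, had 0 of 12, 33 of 41 and 10 of 31, and fragment 714386, with 2, had 5 of 28, 28 of 29 and 12 of 23. Clone 2 was the higher at fragment 130832, with 4 of 22, 10 of 20 and 20 of 20 (Benjamini-Hochberg adjusted p 0.0161, Fisher's exact test), at fragment 1314352, with 2 of 25, 10 of 28 and 17 of 20, and at fragment 939939, with 2 of 17, 10 of 30 and 23 of 30.

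Members lay close to other members in fragment number. The sources used here do not state how fragments were numbered. Eligible fragments 1 number apart differed by a median of 3.51 points in the population, and those 1000 apart by 20.6. Neighbours were counted once for each member they lay near, so 1 fragment can count more than once. Of 333 eligible neighbours next to a member, 92 (27.6%) were members, and 0 belonged to the mirror set. Members were 0.554% of all eligible fragments, each counted once. The share was 17.2% at a distance of 2 numbers, 6.88% at 3 to 5, 2.60% at 6 to 10 and 0.716% at over 100 and up to 500. Molecules of a neighbour had no part in choosing a member. If numbers follow the genome, fragments 1 number apart meet at an MspI site and each hold its CpG, and those 2 apart share none.

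Neighbours outside the members leaned the same way. The 241 non-member neighbours next to a member, counted once for each member, had a median level of 48.3% in the population. Their median difference from the population was 15.6 points in clone 1 and 15.9 in clone 2. Both clones were above the population in 188 of them (78.0%), against 37.6% of all eligible fragments. At 2 numbers the medians were 3.83 and 6.55 points, and at 6 to 10 numbers 0.85 and 1.47. Non-members exclude the largest rises by definition.

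The lean was also present within classes of 20 points of population level. Levels inside a class were not matched further. Counted as above, 34 of 74 neighbours at 20 to 40% in the population were members (45.9%), against 5.99% of all eligible fragments at that level. Under 20% it was 41 of 98 neighbours (41.8%), against 0.7%. Fragments at 80% or more next to a member, which cannot be members, were 5.35 points higher in clone 1 and 6.77 in clone 2 (medians of 37), against 0.352 and 0.887 over all fragments at that level.

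**Figure D4:**
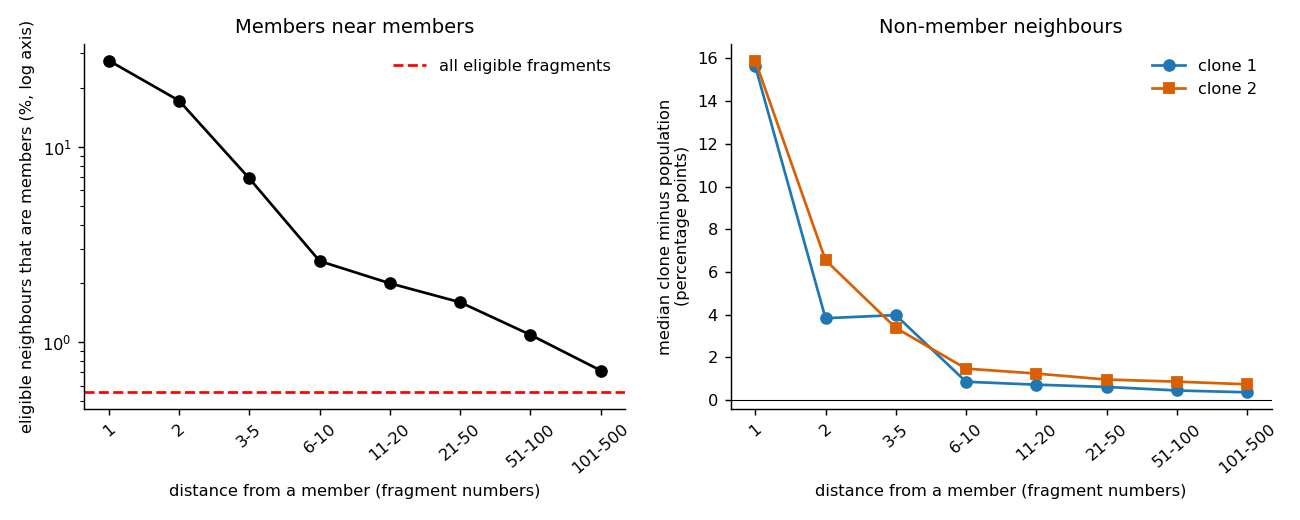
Left, share of eligible neighbours that are members (%, log axis) by their distance in fragment number from a member, with the share over all eligible fragments as a dashed line. A neighbour counts once for each member it lies near. Right, median clone minus population (percentage points) of the neighbours that are not members; both fall with distance, from 27.6% and about 16 points next to a member to 0.716% and under 1 point at over 100 and up to 500 numbers.

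Adjacent members formed 42 runs with 88 members, 38 of them pairs and 4 of 3 fragments. Within 10 numbers of another member lay 158 members (17.7%). In the run that starts at 486376, the first fragment rose from 30.2% to 92.9% in clone 1 and 96.3% in clone 2. The second rose from 37.9% to 95.2% and 90.1%. The third, 486378, with 2 CpGs, was at 0%, 56.5% and 72.7%. Its first CpG was at 0% in the population (3 calls), 92.9% in clone 1 and 50% in clone 2. Its second was at 0% in the population and clone 1 and 85.7% in clone 2, so it did not rise in clone 1. Fragment 486372, 4 numbers below the run, was at 71.6%, 96.6% and 99%, higher in both clones. Fragment 486384, 6 numbers above, was at 40% in the population, against 7.14% in clone 1 and 66.7% in clone 2. The clones thus differed from the population in the same direction below the run and in opposite directions above it.

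In order of fragment number, the run from 986667 lay on the rising side of a dip in methylation among the eligible fragments. Below it, fragment 986662 was at 100% in each library, and fragment 986664 at 76.9% in the population and 96.8% in each clone. Fragment 986665 was at 14.9% in the population, against 34.3% in clone 1 and 51.7% in clone 2. The run itself stood at 15.8%, 48.3% and 61.5% in the population, 66.5%, 86.2% and 92.7% in clone 1, and 49.3%, 80.7% and 93.1% in clone 2. Beyond it, fragment 986671 was at 100%, 95.7% and 100%. The dip was present in all 3 libraries and was less deep in both clones.

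A similar slope was seen in the run from 1288543. Its members stood at 14.7%, 16.7% and 29.2% in the population, 52.9%, 64.0% and 75% in clone 1, and 60%, 88.0% and 82.7% in clone 2. The next number, 1288546, was at 67.7%, 70.7% and 94.3%, and 1288547 at 87.9%, 90.6% and 98.3%. Differences were thus smaller where the population was more methylated.

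The run from 1391716 descended instead, with 50%, 35.2% and 11.8% in the population, 93.0%, 80.2% and 44.8% in clone 1, and 83.2%, 79.5% and 52.8% in clone 2. Fragment 984174, the neighbour of 984173, rose from 3.37% to 64.7% and 48.0%, and fragment 984171 was a member too, at 18.1%, 75.4% and 59.2%. In contrast, fragment 691593, next to the 2-CpG member 691594 and with 10 CpGs, was at 8.33%, 10.7% and 19.1%, and the unmethylated fragments 691592, 691591 and 691590 beyond it moved by at most 2.36 points. That member was thus next in number to fragments of low level in each library.

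**Figure D5:**
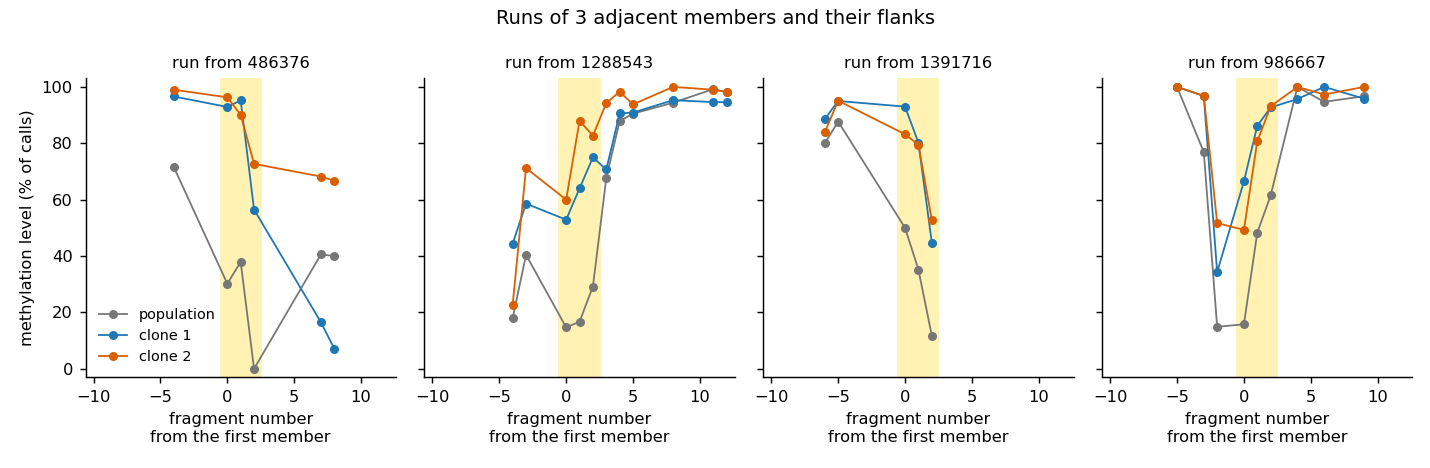
Methylation level (% of calls) in the population, clone 1 and clone 2 of the 4 runs of 3 adjacent members (shaded) and of eligible fragments within 10 numbers of them, by fragment number counted from the first member. The clones exceed the population inside each run, and the libraries converge at the highly methylated flanks of the runs from 1288543 and 986667.

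Where an eligible fragment lay within 5 numbers on both sides, as for 264 members, most members had an intermediate flank in the population. A flank at 80% or more on both sides was found for 36 members (13.6%), against 40.2% of all 41264 eligible fragments with flanks. A flank of 80% or more facing one under 20% was found for 28 (10.6%, against 10.5%), and flanks under 20% on both sides for 21 (7.95%, against 23.0%). Other combinations, with an intermediate flank, made up 67.8% of members and 67.6% of the 3118 non-members at 20 to 60% in the population. Of those non-members, 11.5% had both flanks at 80% or more, 15.1% had 1 such flank facing one under 20%, and 5.81% had both under 20%. The 264 members were not limited to 20 to 60% in the population, so these shares do not compare matched levels.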

How the data were processed

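DNA methylation was measured by bisulfite sequencing of MspI fragments with molecular tags, per the labels' protocols. The submitters' processing notes name Bismark and mm9. Versions and filters, and how replicates were pooled, were not stated there. Each deposited line holds a fragment number, strand, tag, a string of 1 character per CpG, the count of reads behind the tag, not normalized, and a last whole-number score of unstated meaning. Each line counted as 1 molecule, and a level pools both strands.

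Levels, molecule types, neighbours and runs were computed with Python 3.11.15, numpy 2.4.6, pandas 2.3.3 and scipy 1.17.1. The code for Fisher's exact test between the clones was run on simulated, independently drawn molecules. Such draws do not include differences between pooled replicates. Named fragments are the 8 members with the widest smaller difference, the 6 best covered, the 4 with most CpGs, the 3 on each side of the threshold, the 4 runs of 3 with the pair of largest mean difference and the 3 widest calls between clones per direction, ties by fragment number. Members, classes and alternatives were chosen with earlier results of these data known. Intervals cover counting error only.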

Additional observations from a re-analysis of the deposited data

Results flagged for a closer look

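A direct test between the clones separated 18 members, that is, fragments where the rise over the population was larger in 1 clone (Fisher's exact test, Benjamini-Hochberg, over all fragments). These are 2.01% of members, against 3.78% of all fragments tested. Clone 1 minus clone 2, in percentage points of methylated molecules, was 66.9 at fragment 1003310, 48.2 at fragment 111642 and 44.4 at fragment 714386. It was -50.0 at fragment 130832, -49.3 at fragment 1314352 and -43.3 at fragment 939939. Each value compares 2 pooled libraries with no replicate check.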

How the results depend on the processing

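The 894 members became 2745 with a difference of 20 points and 275 with 40, and 1596, 310 and 54 with at least 5, 20 and 30 molecules. Levels by molecules over 50% methylated gave 1668, molecules with 2 or more reads 193 and fragments of at least 4 CpGs 579. Of the 126 members still eligible with 2 or more reads per molecule, 94 met the rule. With each CpG weighted equally the count was 956, but 699 of the 890 members still eligible met the rule. On the plus strand alone, with at least 5 molecules, 495 of 710 did, and on the minus strand alone 492 of 717. Members outnumbered the mirror set in every setting tried, by at least 3.41 times.

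Median levels moved outside the interval of the main median as follows. The population median was 41.5% with 20 points, 25% with 40 points, 35.2% and 40.8% with at least 20 and 30 molecules, 40% with 2 or more reads, 36.7% on the minus strand and 29.0% with at least 4 CpGs. The clone 1 median was 84.2% with 30 molecules, 82.1% by molecules, 83.3% with 2 or more reads, 81.2% on the plus strand, 81.8% on the minus strand and 73.6% with 4 CpGs. The clone 2 median was 78.3% with 40 points, 79.2%, 78.5% and 80.1% with 5, 20 and 30 molecules, 82.9% by molecules, 84.8% with 2 or more reads, 82.9% on the plus strand, 82.4% on the minus strand, 73.2% with 4 CpGs and 78.2% with each CpG weighted equally.

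Calls between the clones were 7 with molecules at 50% counted as methylated (0.783% of members, 2.27% of all tested) and 9 with at least 4 CpGs (1.55%, against 2.46%). By Fisher's exact test on the 190 members left, they were 0 with 2 or more reads (8 at an unadjusted p under 0.05, and 1.13% called of all tested). Neighbours 2 numbers away were members in 17.2% and differed by medians of 7.68 and 11.2 points in clone 1 and clone 2. Non-member neighbours differed by 15.6 and 15.9, and with at least 20 molecules 42.9% of neighbours were members, with medians of 29.2 and 33.0. With calls at 4 or more CpGs, mixed molecules were 54.9% in the population, against 63.8% and 65.7% in clones 1 and 2, and they were 51.3% in the population with 2 or more reads. The cause was not tested. The equal weighting of CpGs, the removal of calls at the far end of each molecule, which end repair fills in, and that of molecules with a last value above 0 were chosen after seeing the data. No paired analysis was possible because both replicates of a clone share 1 file, and for the same reason no replicate could be left out.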
